A study of Mus musculus with 8 samples.

Results

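Interferon-stimulated genes are the genes that cells switch on when interferon reaches them, and 45 of them were followed here in mouse CD4 T cells sorted from spleen. The 45 came as a list of symbols, each was matched to 1 of the 54837 gene identifiers of the count table, and all 45 were among the 18851 genes abundant enough to test. RNA was sequenced from 8 libraries in 3 groups, and mice of both genotypes received tamoxifen on 5 consecutive days. GFPhi (n = 3) were sorted as TIM-3+ FLAG+ GFP+ FoxP3+ from mice that hold FSF-TIM-3 as well as Foxp3-eGFP-Cre-ERT2. GFPlow (n = 3), from that genotype too, were sorted as TIM-3+ FLAG+ GFP- FoxP3-. WT (n = 2) were TIM-3- FLAG- GFP+ FoxP3+ cells, and their mice held Foxp3-eGFP-Cre-ERT2 without FSF-TIM-3, so all 3 groups carried the tamoxifen-activated Cre of the Foxp3 gene. The sources used here give neither the age of the mice nor whether several were pooled, and the titles call all libraries Treg although the GFPlow sort was FoxP3-. Each library goes by its group and its title's number. No label says whether libraries of a group came from separate mice, so p-values measure the spread between these libraries only. By the sex-linked genes given below, library 3 of each transgenic group came from other mice than libraries 1 and 2.

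Type I interferons bind the IFNAR receptor, whose kinases JAK1 and TYK2 activate transcription factors. With IRF9 these form a complex that binds an element built of GAAA repeats near many of the genes below. Interferon gamma acts through its own receptor, and it is the stronger inducer of many of the GTPases among them. The products sense viral RNA and DNA, degrade RNA, block translation, modify other proteins or attack membranes that hold pathogens. T cells hold a resting level of many of them without infection.

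The element was looked for as 2 copies of GAAA with 2 bases between them (GAAANNGAAA, or TTTCNNTTTC where it lies on the opposite strand) in windows from 250 bases before to 50 bases after the gene's start. RefSeq windows (build GRCm38.p6) were matched for 33 of the 45 members, and 20 of these 33 (60.6%) held the motif, against 3.99% of all genes with a window. Every matched sensor (3 of 3), IFIT gene (3 of 3) and GTPase (5 of 5) held it, and so did 2 of 4 matched genes of the OAS family. The 180 bases before the start are printed 5′ to 3′ on the gene's strand for 3 neighbouring guanylate-binding protein genes that differed in their pattern between groups, for 3 members that stood highest in the libraries numbered 3, and for 1 that did so without the motif. Capitals mark the motif on either strand, and overlapping copies run together.
Gbp3, chr3:142559864-142560043, plus strand: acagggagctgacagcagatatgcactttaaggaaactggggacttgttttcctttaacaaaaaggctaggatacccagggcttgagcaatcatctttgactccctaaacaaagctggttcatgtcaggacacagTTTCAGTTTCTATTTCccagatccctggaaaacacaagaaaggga
Gbp7, chr3:142530156-142530335, plus strand: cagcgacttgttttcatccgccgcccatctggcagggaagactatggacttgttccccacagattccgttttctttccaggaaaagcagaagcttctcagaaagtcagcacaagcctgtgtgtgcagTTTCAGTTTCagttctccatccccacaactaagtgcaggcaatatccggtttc
Gbp2, chr3:142620483-142620662, plus strand: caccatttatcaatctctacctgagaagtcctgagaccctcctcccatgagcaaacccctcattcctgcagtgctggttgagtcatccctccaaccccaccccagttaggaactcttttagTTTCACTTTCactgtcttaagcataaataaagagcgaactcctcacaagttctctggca
Rsad2, chr12:26456453-26456632, minus strand: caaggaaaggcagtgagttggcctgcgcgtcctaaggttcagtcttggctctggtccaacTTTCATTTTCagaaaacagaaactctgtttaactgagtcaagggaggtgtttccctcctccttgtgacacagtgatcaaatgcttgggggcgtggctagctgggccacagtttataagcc
Isg15, chr4:156200819-156200998, minus strand: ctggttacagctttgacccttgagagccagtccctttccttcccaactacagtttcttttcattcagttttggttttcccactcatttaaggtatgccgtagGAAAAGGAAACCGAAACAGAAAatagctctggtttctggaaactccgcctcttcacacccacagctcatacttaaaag
Ifit1, chr19:34640709-34640888, plus strand: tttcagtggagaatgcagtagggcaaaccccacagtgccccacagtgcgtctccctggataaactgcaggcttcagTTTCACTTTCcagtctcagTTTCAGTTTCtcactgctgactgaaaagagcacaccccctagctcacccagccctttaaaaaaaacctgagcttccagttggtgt
Oasl2, chr5:114896754-114896933, plus strand: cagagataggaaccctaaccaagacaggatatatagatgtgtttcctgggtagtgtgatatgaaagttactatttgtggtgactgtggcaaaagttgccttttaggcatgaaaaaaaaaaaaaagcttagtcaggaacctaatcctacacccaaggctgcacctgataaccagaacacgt
In Gbp3 a pair of overlapping copies began 45 and 39 bases before the start, in Gbp7 1 copy began 53 bases before it, and in Gbp2 1 copy began 59 bases before it. Starts here are those of the RefSeq windows, and the gene coordinates given further below come from another annotation. By that annotation the stretches of Gbp2, Gbp3 and Ifit1 reach past the gene's start, and the Gbp2 copy lies just inside the gene. Isg15 held 3 overlapping copies, which began 78, 72 and 66 bases before the start. No copy lay in the Oasl2 window, which says only that these letters were not found there.

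Havcr2, the gene of TIM-3, stood at 1080 to 1790 CPM in GFPhi, 127 to 538 CPM in GFPlow, and 0.876 and 0.172 CPM in WT (CPM, counts per 1000000 after TMM scaling, which brings libraries to a common level through most of their genes). Foxp3 ranged over 60.2 to 81 CPM in GFPhi and 1.97 to 4.82 CPM in GFPlow, and its WT values were 41.7 and 63.2 CPM. The summed CPM of 6 T cell markers was 6389 or more in each library. Total counts ran from 44446215 to 55388756 per library. WT library 1 stood apart: its scaling factor was 0.694 (1.041 to 1.07 in the other 7), it had counts for 18599 genes (21248 to 22185 in the others), and 6.54% of its counts were mitochondrial (2.35 to 2.78% in the others). Its 5 platelet markers summed to 40.78 CPM, mostly Ppbp (26.67 CPM) and Pf4 (13.11 CPM), against 0.1875 to 5.303 CPM in the others, and their part in its other values was not tested. The X inactivation transcript Xist had 237, 184 and 242 CPM in GFPhi library 3, GFPlow library 3 and WT library 2, with 0.263 CPM as the highest value elsewhere. Y-linked Ddx3y was at 0 CPM in both libraries numbered 3 but at 6.16 CPM in WT library 2. It stood at 194 and 201 CPM in GFPhi libraries 1 and 2, 229 and 221 CPM in GFPlow libraries 1 and 2, and 170 CPM in WT library 1.

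All 45 members were expressed in every library, at levels that differed widely between genes. Per kilobase of exon and averaged over 8 libraries, the highest were Ifi27l2a, a small membrane protein (4494 CPM per kilobase, 2625 without WT library 1), the surface antigen gene Ly6a (418.1) and the GTPase gene Igtp (263.8). The lowest were Ifi44 (1.373 CPM per kilobase), Oas3 (2.297) and Mx1 (3.507). Summed over the 45 members, GFPhi libraries 1 to 3 held 6649, 8153 and 10370 CPM, and GFPlow libraries 1 to 3 held 7738, 7996 and 10450 CPM. The WT libraries 1 and 2 held 16170 and 8132 CPM. GFPhi and GFPlow thus overlapped, with library 3 the highest in each, and WT library 1 lay above all others. Ifi27l2a made up 50.4% of the sum in WT library 1, against 10.5 to 16.8% in the other 7. Without this gene the sums were 5763, 6983 and 8704 CPM in GFPhi, 6925, 6998 and 8844 CPM in GFPlow, and 8027 and 6763 CPM in WT. WT library 1 then lay inside the range of the transgenic libraries. In such bulk samples, fewer cells that express a gene and less RNA per cell cannot be told apart.

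**Figure D1:**
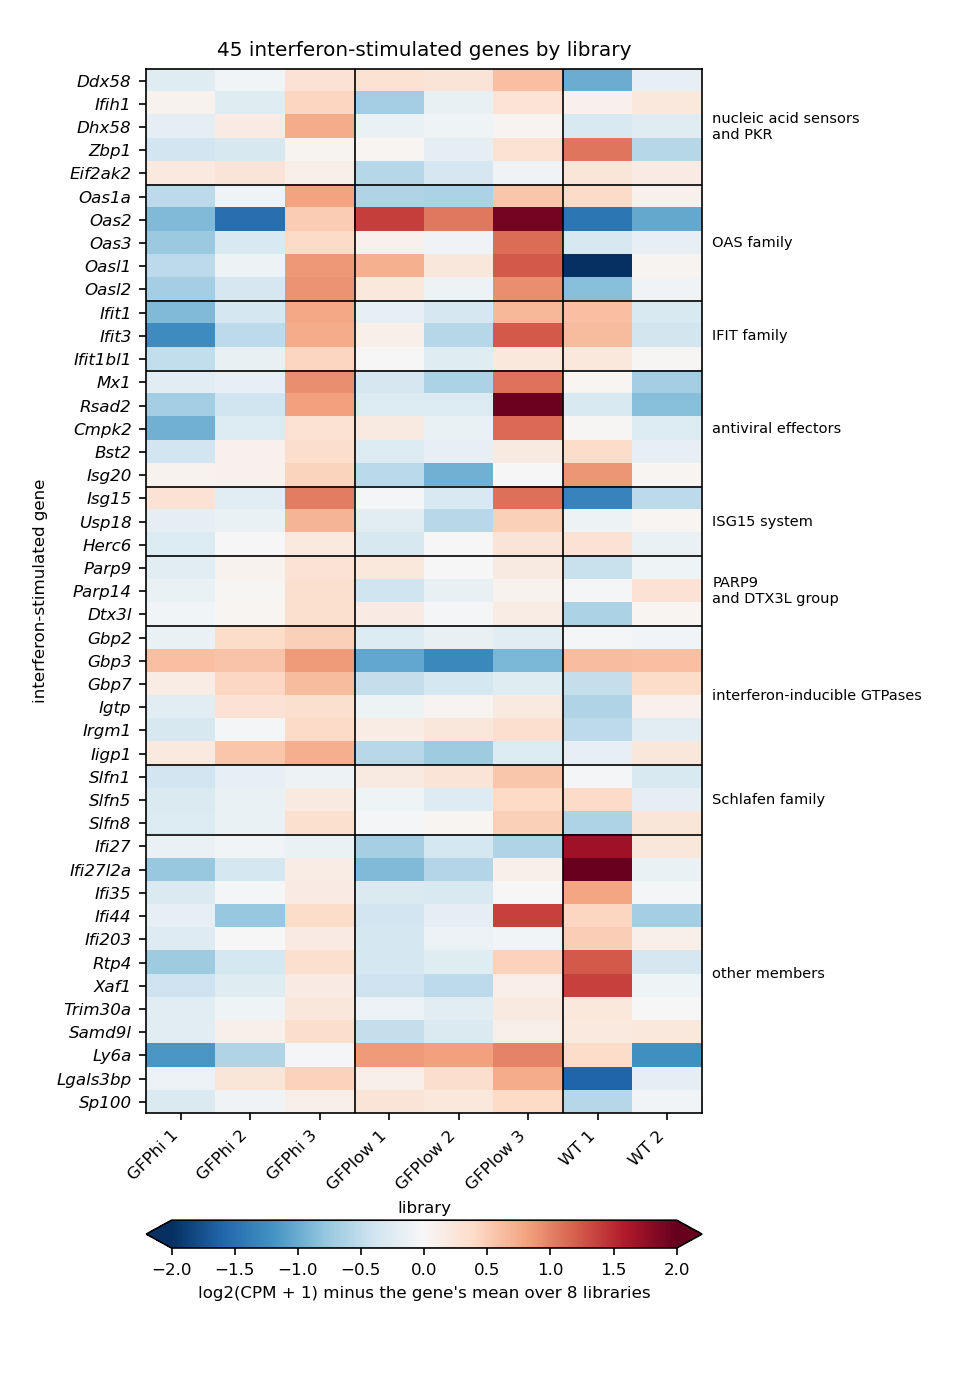
Abundance of the 45 members (rows, by role) in 8 libraries (columns) as log2(CPM + 1) minus each gene's mean over the libraries, with colours ending at 2 above and below the mean. The libraries numbered 3 are the highest of their group for 43 members in GFPhi and 41 in GFPlow, and Gbp3 is low in all 3 GFPlow libraries.

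**Figure D2:**
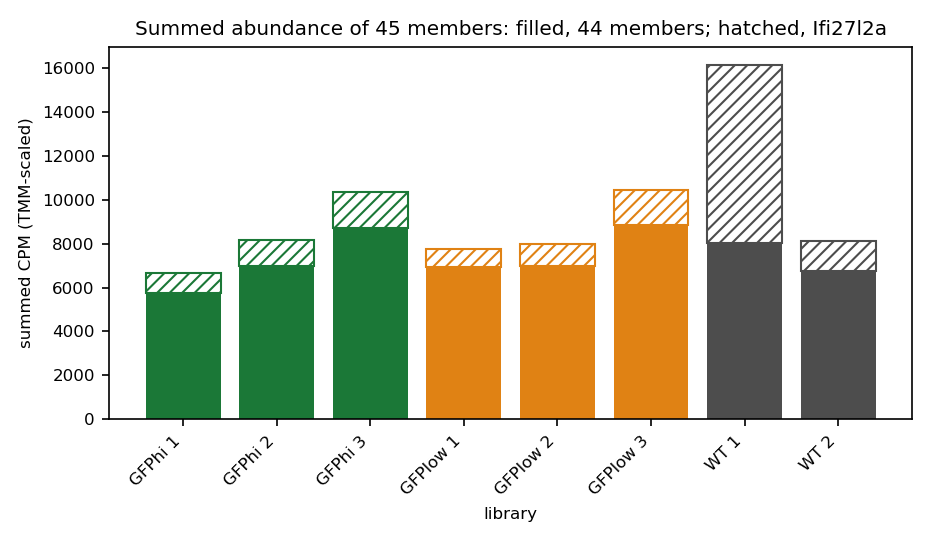
Summed TMM-scaled CPM of the members per library, with Ifi27l2a hatched and the other 44 filled, coloured by group. The total is 16170 CPM in WT library 1 and 6649 to 10450 CPM elsewhere, and the filled part runs from 5763 to 8844 CPM.

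The first comparison, GFPhi against GFPlow, sets FoxP3+ beside FoxP3- cells, both sorted as TIM-3+. Havcr2 stood higher in GFPhi without overlap (1080 to 1790 against 127 to 538 CPM). FoxP3 status and TIM-3 level thus cannot be told apart in this comparison. The members' median log2 fold change was 0.01 (all genes tested 0.01), with 23 above 0 (51.2% of all genes) and 22 below. The guanylate-binding protein gene Gbp3 was higher in GFPhi and was the only 1 of 45 members that passed the test, against 2.26% of all genes (edgeR's quasi-likelihood test, Benjamini-Hochberg adjusted p under 0.05). Groups without overlap numbered 7 members higher in GFPhi (16.0% of all genes) and 4 lower (14.0%).

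Gbp3 encodes a GTPase of the family that coats and breaks vacuoles holding pathogens (ENSMUSG00000028268, GRCm38 chromosome 3, 142560026 to 142573209). Its abundance was 102.6, 99.87 and 121.3 CPM in GFPhi libraries 1 to 3, and 32.2, 26.82 and 35.12 CPM in GFPlow libraries 1 to 3. In WT it was 103.3 and 102.6 CPM. All GFPlow libraries lay below all others, and both WT values lay within the GFPhi range. Gbp3 was 3.44-fold higher in GFPhi than in GFPlow (log2 1.78 ± 0.17 SE, 95% interval 1.38 to 2.18, adjusted p = 0.003 by edgeR), and the differences between equally numbered libraries were 1.64, 1.86 and 1.76. With both libraries numbered 3 left out the difference was still 1.78, and the adjusted p = 0.0974 by edgeR.

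The other 5 GTPase genes of the list did not pass. The immunity-related GTPase gene Iigp1 stood at 207.9, 268.8 and 301.2 CPM in GFPhi and 124.2, 111.4 and 151 CPM in GFPlow, with 162.8 and 212.5 CPM in WT. GFPhi and GFPlow did not overlap (log2 1.01 ± 0.22 SE, adjusted p = 0.0588 by edgeR). Gbp7, next to Gbp3 on chromosome 3 (142530342 to 142550149), stood at 301.4, 362.8 and 422.7 CPM in GFPhi, 195, 213 and 231.3 CPM in GFPlow, and 196.8 and 350.5 CPM in WT. It did not overlap either (0.77 ± 0.25 SE, adjusted p = 0.221 by edgeR). Gbp2, a further neighbour (142620602 to 142638008), was at 138.4 to 211.4 CPM in GFPhi and 125.6 to 136.1 CPM in GFPlow (0.47 ± 0.19 SE). Igtp, whose reads may include those of the overlapping gene Irgm2, and Irgm1, both regulators of this GTPase system, overlapped between the groups (0.10 ± 0.24 and -0.20 ± 0.22 SE). The 5 further guanylate-binding protein genes among the other interferon-stimulated genes read for context ran from -0.13 (Gbp9) to 0.76 (Gbp5), and none passed.

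Of the 39 members that are no GTPases, none passed. Oas2, an enzyme that makes the 2-5A signal for RNase L, stood at 6.806, 4.009 and 19.4 CPM in GFPhi, 36.16, 28.67 and 52.89 CPM in GFPlow, and 4.283 and 6.069 CPM in WT (ENSMUSG00000032690, chromosome 5, 120730333 to 120749853). Each GFPlow library lay above all GFPhi and WT libraries (-1.96 ± 0.56 SE, adjusted p = 0.155 by edgeR). Its neighbour Oas3 (-0.66 ± 0.42 SE), Oasl1 (-0.62 ± 0.76) and Oasl2 (-0.29 ± 0.48) overlapped between groups, as did Oas1a (0.30 ± 0.43). Ly6a, which encodes the surface antigen Sca-1, stood at 191.7, 282.7 and 421.8 CPM in GFPhi and 775.6, 761.9 and 858.4 CPM in GFPlow. The groups did not overlap (-1.42 ± 0.43 SE, adjusted p = 0.184 by edgeR). Of its WT values, 555.6 CPM lay between these groups and 182.6 CPM below both. Slfn1, of the Schlafen family of growth regulators, was at 271.1 to 330.4 CPM in GFPhi and 397.8 to 516.7 CPM in GFPlow (-0.54 ± 0.19 SE, adjusted p = 0.262 by edgeR).

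The sensors lay on both sides of 0, from -0.39 ± 0.25 SE for Ddx58, which encodes the RNA sensor RIG-I, to 0.51 ± 0.18 SE for Eif2ak2, which encodes the kinase PKR. IFIT genes, whose products bind foreign RNA, ran from -0.57 (Ifit3) to -0.03 (Ifit1bl1). Among antiviral effectors the range was -0.85 (Rsad2, the gene of viperin) to 0.67 (the exonuclease gene Isg20). The genes of the ubiquitin-like modifier system, Isg15, the deconjugating protease gene Usp18 and the ligase gene Herc6, ran from -0.01 to 0.21. Parp9 and its partner Dtx3l overlap on the genome, so their reads may be shared, and with Parp14 they ran from -0.08 to 0.23. The remaining differences, other than those of Ly6a and Ifi27, were -0.68 to 0.29.

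Which members passed depended on the WT libraries, which enter the estimate of the spread that all 3 groups share. Fitted on the 6 transgenic libraries alone, GFPhi against GFPlow called 6 members (12.3% of all genes), 4 of them higher in GFPhi: Gbp3, Gbp7, Iigp1 and Ifi27. Ly6a and Slfn1 were lower. In that edgeR fit Gbp7 was 0.76 ± 0.12 SE (adjusted p = 0.00673), Iigp1 1.01 ± 0.16 SE (0.00582), Ifi27 0.43 ± 0.09 SE (0.0162), Ly6a -1.42 ± 0.25 SE (0.00924) and Slfn1 -0.54 ± 0.11 SE (0.0199). Oas2 had an adjusted p of 0.0557 there. Leaving out either WT library 1 or WT library 2 alone kept the log2 fold change of Gbp3 at 1.78. With both WT libraries kept and both libraries numbered 3 left out, no gene of the 18176 tested passed, members included.

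**Figure D3:**
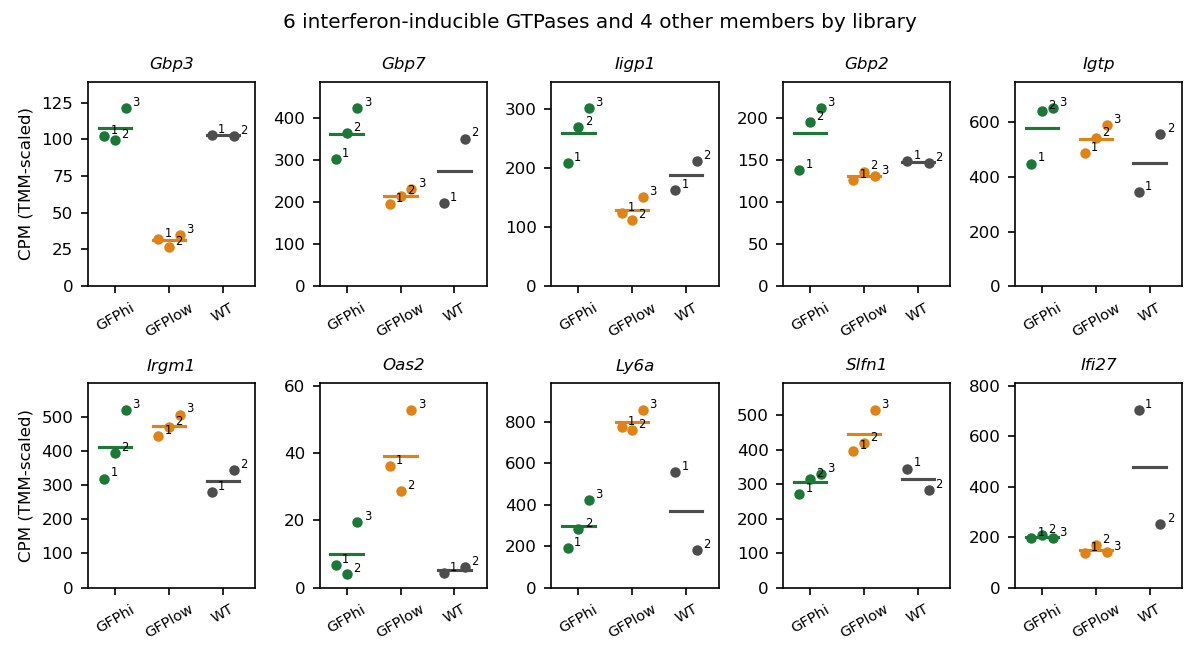
TMM-scaled CPM of 6 GTPase genes and 4 other members (each panel with its own axis from 0), with points for libraries, labelled by number, and lines for group means. Gbp3 is at 26.82 to 35.12 CPM in GFPlow and at 99.87 to 121.3 CPM in the other groups, and Oas2 is highest in GFPlow.

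**Figure D4:**
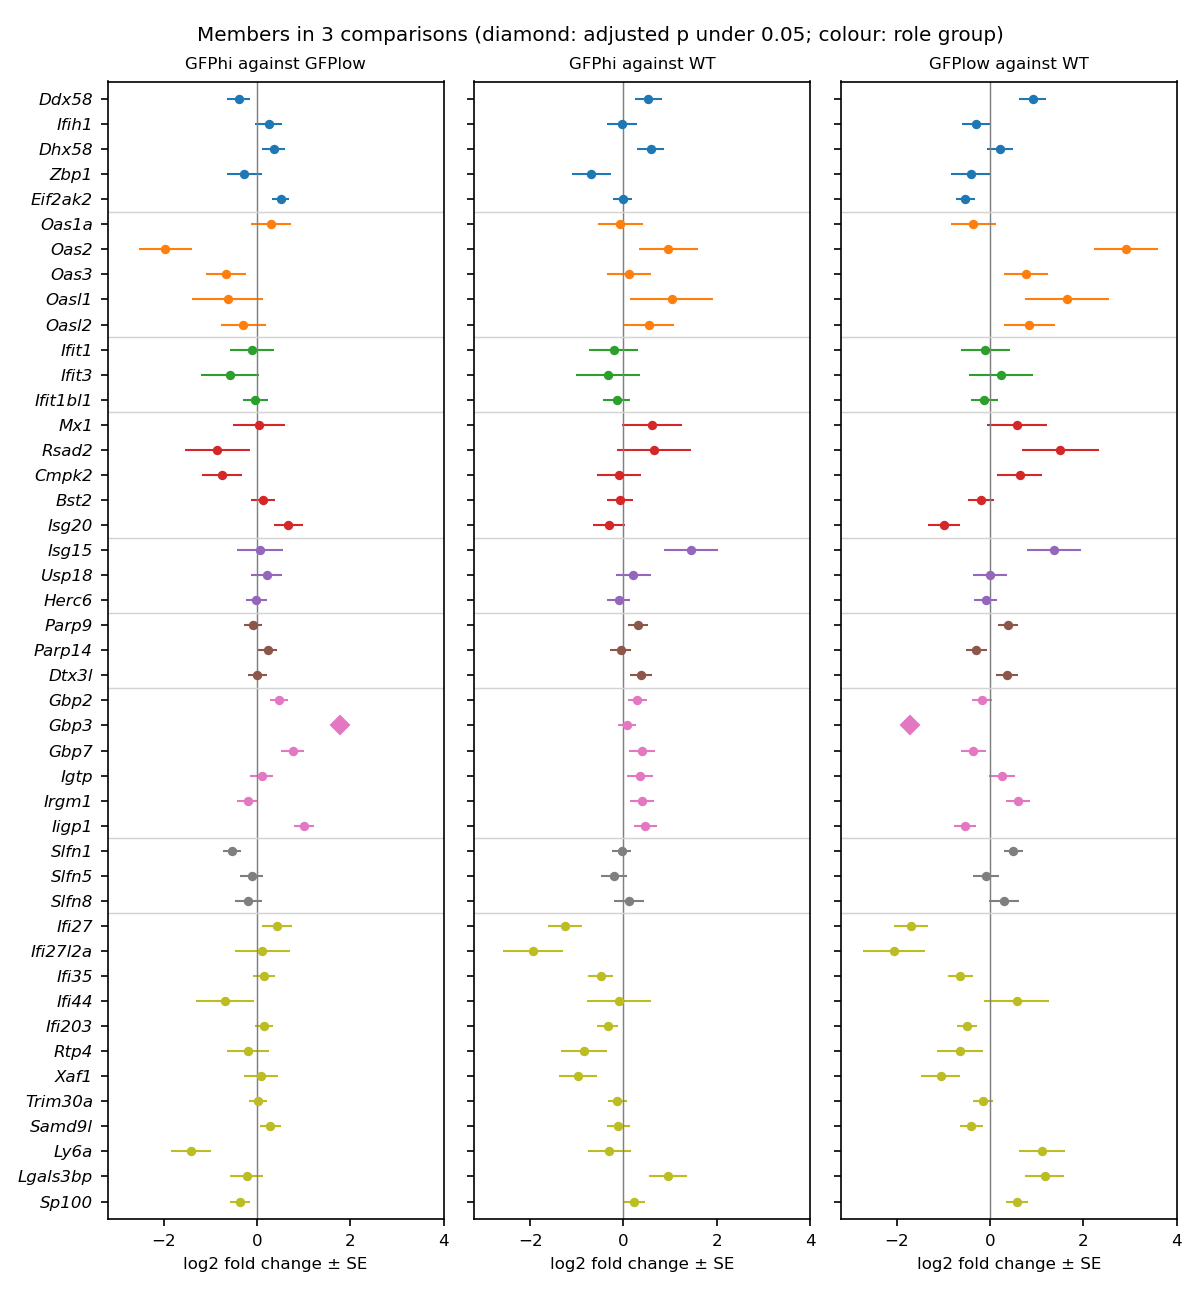
Log2 fold change ± SE of the 45 members in 3 comparisons, with role groups set apart by colour and lines and diamonds for an adjusted p under 0.05. Gbp3 is the only diamond in GFPhi against GFPlow (1.78) and in GFPlow against WT (-1.71), and GFPhi against WT has none.

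The second comparison, GFPhi against WT, sets TIM-3+ beside TIM-3- cells, both sorted as GFP+ FoxP3+. Their mice differ in FSF-TIM-3 as well, so sort and genotype cannot be told apart here. No member passed (0.0% of all genes), and 5 had an unadjusted p under 0.05, as did 13.7% of all genes. DESeq2 called 2 members, Ifi27 and Ifi27l2a, both lower in GFPhi (1.7% of all genes called), and limma voom none. Ifi27l2a overlapped between these groups, and its WT libraries differed 5.94-fold. The median log2 fold change was -0.04 (all genes 0.08). All 6 GTPase genes lay between 0.07 (Gbp3) and 0.47 (Iigp1) by edgeR, and their groups overlapped. Ifi27, of the same small family as Ifi27l2a and its neighbour on chromosome 12, had 197.7, 209.2 and 197.7 CPM in GFPhi, against 706.1 and 253.9 CPM in the WT libraries (-1.25 ± 0.37 SE, adjusted p = 0.348 by edgeR). Both WT libraries lay above GFPhi but differed 2.77-fold from each other. Isg15 stood at 17.51, 11.93 and 29.63 CPM in GFPhi, above its WT values of 4.997 and 9.5 CPM (1.44 ± 0.58 SE, adjusted p = 0.354 by edgeR). Lgals3bp, a secreted binding protein gene, and the RNA sensor gene Dhx58 were the other members higher in GFPhi without overlap, so 3 were higher (15.6% of all genes) and Ifi27 alone was lower (12.6%).

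The count depended on which WT library was kept. Without WT library 2 the count was 15 members, 8 of them higher in GFPhi (40.1% of all genes called), and without WT library 1 it was 0. WT library 1 exceeded WT library 2 by 5.94-fold for Ifi27l2a (8141 against 1369 CPM), 3.13-fold for the DNA and RNA sensor gene Zbp1, 3.03-fold for Ly6a and 2.97-fold for Rtp4, a receptor transporter gene. It was lower for Oasl1 (0.8111 against 9.31 CPM) and Lgals3bp (48.25 against 129.9 CPM). For Gbp3 the ratio was 1.01. By exon length, the median ratio of WT library 1 over 2 was 1.45 for the 3 members up to 1000 bases (with Isg15 at 0.571), 1.8 for the 7 of 1000 to 2000 bases, 1.01 for the 12 of 2000 to 4000 bases and 0.904 for the 23 above 4000 bases. Over all genes tested these medians were 1.29, 1.01, 0.893 and 0.791, and Spearman's rho of the ratio with exon length was -0.362 over the 45 members and -0.302 over all genes, which share the same pair of libraries. The part of this in the members' values was not tested.

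The third comparison, GFPlow against WT, shares its libraries with both others. Its groups differ in the FoxP3 and GFP sort, in the TIM-3 and FLAG sort and in FSF-TIM-3, which cannot be told apart here. Gbp3 was the only 1 of 45 members that passed (3.3% of all genes), 3.28-fold lower in GFPlow (-1.71 ± 0.19 SE, 95% interval -2.14 to -1.29, adjusted p = 0.00432 by edgeR). The adjusted p = 0.0689 on the libraries of these groups alone and 0.0728 without both libraries numbered 3. Groups without overlap numbered 13 members higher in GFPlow (21.1% of all genes) and 8 lower (19.2%). The median log2 fold change was -0.09 (all genes 0.02). Ifi27 stood at 136.6, 168.8 and 142.1 CPM in GFPlow, below the WT values given above (-1.69 ± 0.37 SE, adjusted p = 0.0516 by edgeR). Oas2 was higher in GFPlow without overlap (2.92 ± 0.69 SE, adjusted p = 0.0659 by edgeR). Without GFPhi library 3 its adjusted p = 0.0245 here and 0.0352 in GFPhi against GFPlow, also by edgeR.

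Among the other members higher in GFPlow without overlap were Oas3, Oasl1, Rsad2, Ddx58, Isg15, Ly6a, Slfn1 and Sp100, a nuclear body protein gene. Those lower included Eif2ak2, Isg20, Gbp2, Iigp1, the DNA sensor family gene Ifi203 and Samd9l, a translation inhibitor gene. None of these passed. Without WT library 1 edgeR called 4 members, Gbp3, Gbp7 and Ifi27 lower and Ly6a higher (5.88% of all genes), and without WT library 2 it called 20, 10 in each direction (43.9% of all genes). Scaling by total counts alone moved the median log2 fold change of all genes from 0.02 to 0.27 in GFPlow against WT and from 0.08 to 0.32 in GFPhi against WT, and that of the members from -0.09 to 0.26 and from -0.04 to 0.27, so directions against WT are relative to the TMM scaling.

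Within each transgenic group the members shared an order of libraries. The higher sums of the libraries numbered 3 were known when the list was taken up. The counts below therefore describe that order and do not test it. Both libraries numbered 3 also share their title's number, Xist and the lack of Ddx3y, so the sorts may not be independent here. Library 3 was the highest of 3 for 43 of 45 members in GFPhi (33.6% of all genes) and for 41 of 45 in GFPlow (33.0%), and for 40 of 45 in both (11.5%). The exceptions were Eif2ak2 and Ifi27 in GFPhi, and Parp9, Dtx3l, Gbp2 and Ifi27 in GFPlow. The counts of 43 and 41 were the same with median-of-ratios scaling and with total counts alone. On CPM + 1, the median member of library 3 was 1.28-fold (GFPhi) and 1.27-fold (GFPlow) over the higher of libraries 1 and 2, and the median of all genes was 0.934-fold in each. In each group 13 members exceeded 1.5-fold, as did 2.74% of all genes in GFPhi and 3.22% in GFPlow.

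The IFIT and OAS genes and several antiviral effectors differed most in this way, and the GTPases and the Parp9 group least. Ifit1 stood at 77.04, 112 and 244.9 CPM in GFPhi libraries 1 to 3 and at 127.5, 113.2 and 226.4 CPM in GFPlow libraries 1 to 3, and in WT at 218.4 and 116.3 CPM. Rsad2 stood at 11.1, 13.78 and 33.55 CPM in GFPhi and 15.13, 15.16 and 74.78 CPM in GFPlow, and in WT at 14.86 and 9.845 CPM. Library 3 was the highest in both sorts for both genes. By role the median fold of library 3 was 2.18 (GFPhi) and 1.77 (GFPlow) for the IFIT family, 1.95 and 1.65 for the OAS family, 1.65 and 1.64 for the ISG15 system, and 1.49 and 1.93 for antiviral effectors. It was 1.28 and 1.2 for sensors, 1.25 and 1.35 for the Schlafen family, 1.21 and 0.983 for Parp9, Parp14 and Dtx3l, and 1.14 and 1.09 for the GTPases. Isg15 with its 3 copies of the motif (1.65 and 2.18) and Oasl2 with none (2.35 and 1.65) both exceeded 1.5-fold in both sorts. The median was 1.27 and 1.25 over the 20 members with the motif and 1.21 and 1.33 over the 13 without it.

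**Figure D5:**
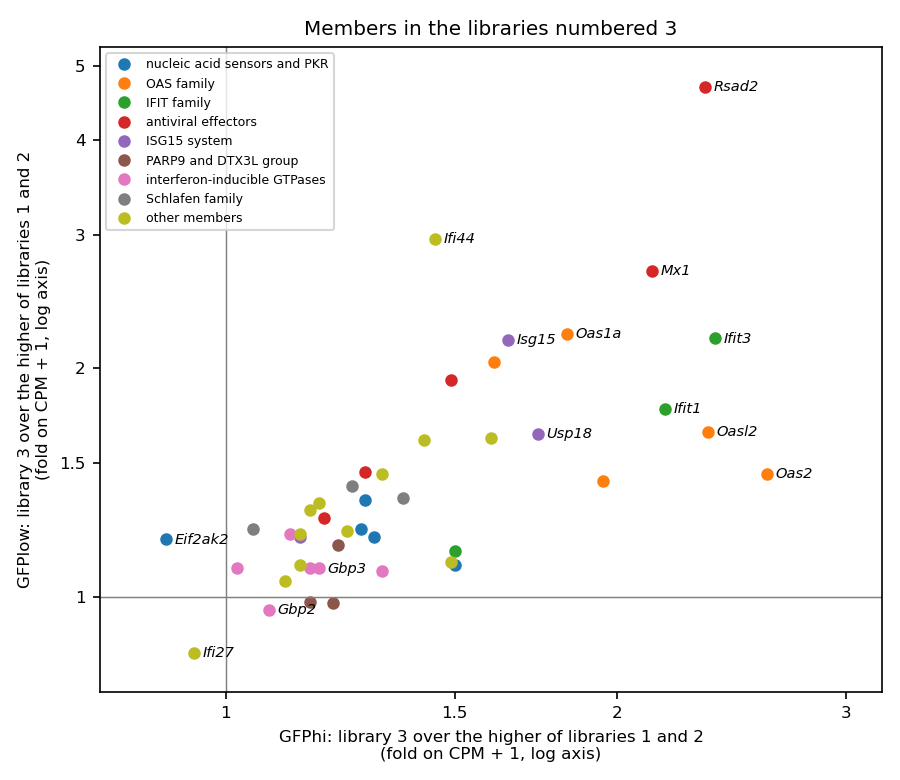
Fold of library 3 over the higher of libraries 1 and 2 for each member, in GFPhi (horizontal) and GFPlow (vertical), on CPM + 1 and log axes, coloured by role. Rsad2 (2.34 and 4.69), Ifit3 (2.38 and 2.19) and Mx1 (2.13 and 2.69) lie far out, and the GTPases lie near 1.

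Other features moved with library 3. The 6 macrophage and monocyte markers tested, of 7 listed, were all highest in library 3 in both sorts, with summed values of 2.25, 1.637 and 24.99 CPM in GFPhi, 21.03, 2.58 and 231.5 CPM in GFPlow, and 8.209 and 31.96 CPM in WT. In GFPlow library 3 most of this was Lyz2, the lysozyme gene (197 CPM), and Fcgr1 was at 0 CPM in the other 7 libraries. Of 6 erythroid markers, 5 were highest in library 3 in both sorts, with sums of 1.875, 1.506 and 6.985 CPM in GFPhi, 0.7846, 1.422 and 16.93 CPM in GFPlow, and 2.758 and 5.586 CPM in WT. NK cell markers moved with library 3 mainly in GFPlow. Their sums were 6.487, 5.308 and 7.17 CPM in GFPhi and 22.64, 19.04 and 74.41 CPM in GFPlow. WT libraries 1 and 2 held 8.663 and 5.879 CPM. Of the 4 NK cell markers tested, library 3 was the highest for 3 in GFPlow but for 1 in GFPhi. Both libraries numbered 3 also held Xist and no Ddx3y. WT library 2 held both Xist and Ddx3y (6.16 CPM). Its member sum of 8132 CPM lay within the range of the transgenic libraries numbered 1 and 2. The part of these features in the members' values was not tested. B cell markers, which summed to 44.62 to 51.69 CPM in GFPhi and 5.585 to 11.84 CPM in GFPlow, moved with the sort, mostly as Cd79b. Of 6 markers of plasmacytoid dendritic cells, a main source of type I interferon, Siglech and Klk1 were at 0 CPM in all libraries and Cox6a2 was at 0 CPM in all but GFPlow library 3 (0.368 CPM). Pacsin1 (13.11 to 93.95 CPM), Ccr9 (6.414 to 18.04 CPM) and Bst2, itself a member, had counts in every library. Without Bst2 the list summed to 92.59 to 109.1 CPM in GFPhi, 79.08 to 82.57 CPM in GFPlow, and 20.02 and 96.05 CPM in WT.

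Genes upstream of the members were read beside them. Of the interferon ligands, Ifna1, Ifna2, Ifna4, Ifnb1, Ifnl2 and Ifnl3 had no count in any library, where 3 counts would be 0.0517 to 0.0973 CPM. Ifnk had 3 counts in GFPhi library 1, 5 in GFPhi library 3 and none elsewhere, and was not tested. Ifng, the gene of interferon gamma, stood at 12.79, 8.601 and 4.428 CPM in GFPhi, 11.04, 12.03 and 6.122 CPM in GFPlow, and 20.86 and 3.828 CPM in WT, and was the lowest of each transgenic group in library 3. None of 10 genes for receptors, kinases and STAT factors passed in any comparison. Jak1 was the most abundant of them (715.6 to 948.1 CPM outside WT library 1). Library 3 was the highest in both sorts for 3 of these 10 genes.

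Among 5 IRF genes, Irf5, whose factor acts below Toll-like receptors, was higher in GFPhi than in GFPlow. It stood at 20.64, 24.24 and 25.94 CPM in GFPhi, 9.9, 9.549 and 9.822 CPM in GFPlow, and 19.27 and 25.78 CPM in WT. Like Gbp3 it was low in all 3 GFPlow libraries (1.27 ± 0.20 SE against GFPhi, adjusted p = 0.0177, and GFPlow against WT -1.21 ± 0.22 SE, adjusted p = 0.0274, both by edgeR). Irf5 was the only 1 of these 5 genes to pass there, as did 2.26% and 3.3% of all genes. With both libraries numbered 3 left out, no gene passed in GFPhi against GFPlow. Irf7, the factor that amplifies interferon production, stood at 145.9, 167 and 289.6 CPM in GFPhi, 221.5, 214 and 347.9 CPM in GFPlow, and 34.13 and 157.2 CPM in WT. It was highest in library 3 in both sorts, as the members were. Irf1, the most abundant at 524.6 to 636.3 CPM in the transgenic libraries, did not pass.

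No gene passed among 10 sensor adaptors and kinases (such as Tmem173, the gene of STING, at 310.8 to 423.5 CPM in the transgenic libraries), 7 negative regulators (such as Samhd1 at 667.9 to 1376 CPM there) or 13 antigen processing genes (such as B2m and H2-D1). Of 53 further interferon-stimulated genes, none passed in GFPhi against GFPlow or GFPhi against WT, and 1 passed in GFPlow against WT, where 3.3% of all genes did. Ifitm2, of a membrane protein family that blocks viral entry, was lower in GFPlow (2.727, 1.422 and 3.526 CPM) than in WT (30.37 and 10.93 CPM), at -3.01 ± 0.58 SE (adjusted p = 0.0327 by edgeR). Its GFPhi values were 12.6, 8.79 and 5.244 CPM. Ifitm2 has 655 bases of exon, and up to 1000 bases the median ratio of WT library 1 over 2 was 1.29 over all genes. The part of this in its values was not tested. Of these 53, library 3 was the highest in both sorts for 33.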

How the data were processed

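The authors deposited 1 table of counts, whole numbers per Ensembl gene with no normalization, for 8 libraries of sorted spleen cells. Cells were sorted into lysis buffer, and SMART-Seq HT and Nextera XT kits were used, per the labels' protocols. The submitters' processing notes name build GRCm38 and the tools HTSeq 0.11.2, HISAT2 2.1.0, R 4.0, SAMtools 1.9 and edgeR, without their roles. No source used here gives the annotation, strand setting or filters, so reads of overlapping or near-identical genes (Parp9 and Dtx3l, Igtp and Irgm2, Ifi203 and Mndal, the guanylate-binding proteins) may be shared. Of 54837 identifiers, 54808 matched GENCODE vM21 (GRCm38), which gave symbols, coordinates and exon lengths.

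Genes kept by filterByExpr (18851) were scaled by TMM and fitted in edgeR 4.0.16 with 1 mean per group over all 8 libraries (robust glmQLFit, two-sided quasi-likelihood test, 5 residual degrees of freedom, Benjamini-Hochberg over all genes tested, threshold 0.05). Values are TMM-scaled CPM, and ratios between libraries use CPM plus a pseudocount of 1. A limit from 3 counts covers counting error alone. Groups come from the labels' titles. The members, role groups, marker and pathway lists were chosen with earlier results of these data known. The naming rule took the 2 most abundant members of each role group (4 of the mixed group) and those past the threshold or among the 3 smallest p of a comparison. Of pathway and marker lists it was the 2 most abundant genes and, for pathways, those past the threshold. A gene that this rule picks is not reported here. Several of these are given only by fold or range, and members named beside them, Gbp7 and Rsad2 among them, were chosen after their values were seen. Alternatives were other scalings and filters, DESeq2 1.42.0, limma 3.58.1 voom with sample quality weights, the replicate block, only the groups compared, and each library left out. Left-out pairs, DESeq2 without WT library 1, the order of libraries under other scalings and the sum without Ifi27l2a were added after seeing the data. Scripts ran in R 4.3.3 and in Python 3.11.15 with matplotlib 3.10.9 and pandas 2.3.3. In simulated counts for GFPhi against GFPlow (18085 genes, 200 of them changed), the fit recovered 8 of 100 genes changed 2-fold and 72 of 100 changed 4-fold, with 4 false calls. The shared number in the titles was checked for pairing and did not meet the rule used here.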

Additional observations from a re-analysis of the deposited data

How the results depend on the processing

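The 1 / 0 / 1 members called (GFPhi against GFPlow, GFPhi against WT, GFPlow against WT) and the 426, 0 and 623 genes called over all genes depended on the fit and on single libraries. GFPhi against GFPlow called 2 members with a filter of 5 CPM (4.44% of all genes), 4 by DESeq2 (7.29%) and 11 by voom (12%). On the compared libraries alone it called 6 (12.3%). With both libraries numbered 3 left out, a setting added after seeing the data, it called 0 (0% of all genes). DESeq2 without WT library 1, also added, gave Gbp3 a log2 fold change of 1.78. GFPhi against WT called 2 by DESeq2 (1.7%). GFPlow against WT called 3 without a filter and 3 with that of 5 CPM, 6 by DESeq2, 0 by voom, 0 on the compared libraries, and, added, 0 without both libraries numbered 3 and 9 by DESeq2 without WT library 1, where Zbp1 turned to 0.65 from -0.41. With each library left out the members called ran from 1 to 6, from 0 to 15 and from 1 to 20, with the highest counts without a WT library, where the lone WT library was assumed to vary like the other groups. Oas2 passed in GFPhi against GFPlow and GFPlow against WT without GFPhi library 3.

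Over all genes, GFPhi against GFPlow called 270 with total counts, 1375 by DESeq2, 2271 by voom, 2105 on the compared libraries, 0 without both libraries numbered 3 (added) and 3246 by DESeq2 without WT library 1 (added). GFPhi against WT called 1 without a filter, 320 by DESeq2 and 72 by DESeq2 without WT library 1 (added). GFPlow against WT called 325, 3243, 72, 33, 13 and 2449 in the order given for the first comparison. With each library left out these counts ran from 105 to 1984, from 0 to 8234 and from 213 to 9002. The cause was not tested. Gbp3 kept its direction under every setting in both comparisons where it passed, and in GFPlow against WT its adjusted p was 0.0828 by voom and at most 0.136 over all settings.

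The titles number GFPhi and GFPlow libraries alike. Deviations from the group means correlated by 0.0671, 0.0662 and 0.149 within numbers 1, 2 and 3, and each of the 6 libraries correlated best with its own number, a hint from the data and not from the design. With the replicate block on all 8 libraries the members called were 1, 0 and 1. All genes called were then 182 (0.965%) in GFPhi against GFPlow and 158 (0.838%) in GFPlow against WT. With the block on the compared libraries GFPhi against GFPlow called 11 members and 1752 genes (10.3% of all genes). GFPhi against WT called 0 members and 22 genes (0.123%), and GFPlow against WT 1 member and 217 genes (1.23%). That member was Oas2 (2.65, adjusted p = 0.0235 by edgeR), and Gbp3 did not pass there (-1.82, adjusted p = 0.136 by edgeR).

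Summed CPM with median-of-ratios scaling was 6557 and 10270 in GFPhi libraries 1 and 3, 7961 and 10530 in GFPlow libraries 2 and 3, and 16540 in WT library 1. With total counts alone it was 7115, 8488 and 10920 in GFPhi, 8181, 8430 and 11000 in GFPlow, and 11210 and 8518 in WT.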
